A study of Mus musculus with 15 samples.

Results

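Receptors that hold hematopoietic stem cells in the bone marrow or guide them into and out of it were followed at the transcript level: Cxcr4, Cd44, Selplg, S1pr1 and Robo4. They were chosen by name, with earlier results of these data known. Each matched 1 row of the expression table, and they make up 5 of its 20696 genes. All 5 passed the filter on low values, a mean of at least 1 FPKM (fragments scaled to transcript length and to library depth), which kept 11345 genes for testing. RNA came from hematopoietic stem cells (HSCs) of mouse bone marrow in 3 groups of 5 libraries: mice labelled aged Thbs1 knockout (18 months), aged controls (18 months) and young controls (3 months). Thbs1 encodes thrombospondin 1, a secreted matrix glycoprotein. The series describes a comparison of expression with age and in the aged knockout. The Thbs1 allele, the strain and the sorting gate are not given in the labels. Whether each sample of a group is its own animal is not stated either, and the p-values below therefore cover the spread among samples, which may be partly technical.

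HSCs leave and re-enter the marrow throughout life, and the receptors studied here act at different steps of that traffic. CXCR4 answers the chemokine CXCL12 made by marrow stroma and is the main retention signal of HSCs. CD44 binds hyaluronan and, when suitably glycosylated, selectins, and the Selplg product PSGL-1 is the principal ligand of P-selectin, so both serve tethering on marrow vessels. S1PR1 reads the sphingosine 1-phosphate of blood and lymph and draws cells towards it, and in lymphocytes it is the receptor for exit from lymphoid organs. ROBO4 is a roundabout-family receptor, best known from endothelium, that in mouse HSCs has been linked to adhesion in the niche and to efficient homing.

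In GRCm38 coordinates from the GENCODE M21 annotation, Cxcr4 (ENSMUSG00000045382) lies on the minus strand at chr1:128588199-128592293 with 2 exon blocks once transcripts are merged. Cd44 (ENSMUSG00000005087) lies on the minus strand at chr2:102811141-102901665 with 19 exon blocks, 15.21 Mb from Thbs1 on the same chromosome. The gene for PSGL-1, Selplg (ENSMUSG00000048163), lies on the minus strand at chr5:113818536-113832644 with 3 exon blocks. S1pr1 (ENSMUSG00000045092) lies on the minus strand at chr3:115710433-115715072 with 2 exon blocks. Robo4 (ENSMUSG00000032125) lies on the plus strand at chr9:37401897-37415115 with 16 exon blocks. All are protein-coding, and their exons overlap no other annotated gene.

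Promoter sequence is shown for Cxcr4, Cd44 and Robo4, the members with an entry in the promoter set used. It is RefSeq sequence on GRCm38.p6, upstream of the outermost annotated start, for 3 of the 5 members; Selplg and S1pr1 are named only. The Cxcr4 window is chr1:128592300-128592549 (minus strand), the Cd44 window chr2:102901670-102901915 (minus strand) and the Robo4 window chr9:37401722-37401896 (plus strand). Capitals mark matches, on either strand, to the GC box GGGCGG, the TATA box TATAAA, the NRF1 palindrome GCGCATGCGC and the CACCC box CACCC in Cxcr4, and to the ETS core TTCCT in Cd44.
Cxcr4: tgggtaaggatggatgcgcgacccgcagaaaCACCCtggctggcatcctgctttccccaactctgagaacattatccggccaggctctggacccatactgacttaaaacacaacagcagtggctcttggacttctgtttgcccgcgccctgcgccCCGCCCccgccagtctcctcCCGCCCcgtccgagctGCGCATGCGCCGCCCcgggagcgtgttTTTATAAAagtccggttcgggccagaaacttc
Cd44: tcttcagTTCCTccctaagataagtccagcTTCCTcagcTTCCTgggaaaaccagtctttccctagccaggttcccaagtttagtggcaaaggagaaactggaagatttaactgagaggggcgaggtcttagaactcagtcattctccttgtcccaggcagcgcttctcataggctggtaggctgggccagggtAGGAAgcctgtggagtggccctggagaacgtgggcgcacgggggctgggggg
Robo4: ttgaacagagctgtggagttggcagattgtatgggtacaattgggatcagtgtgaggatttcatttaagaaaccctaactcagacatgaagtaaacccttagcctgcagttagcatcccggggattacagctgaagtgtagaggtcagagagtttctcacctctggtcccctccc

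The promoters differed in composition: 61.2% of bases were G or C in Cxcr4, 56.1% in Cd44 and 47.4% in Robo4, beside a median of 52.4% over 32851 RefSeq promoters of 250 bases. The Cxcr4 window held 3 GC boxes (present in 32.7% of all promoters), 2 overlapping TATA matches on opposite strands (12.4%), 1 NRF1 palindrome that shares a base with the GC box after it (0.782%) and 1 CACCC box (52.0%). In Cd44 the ETS core occurred 4 times; 60.3% of promoters hold it at least once. None of these 5 motifs was matched in the shorter Robo4 window. The motifs were chosen with the sequences in view, and a match describes letters in a window, not a bound site.

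Reads recovered from the step size of FPKM values put 279 to 592 reads behind each Cxcr4 value and 3661 to 7770 behind each Selplg value; the per-library totals stand with the processing. The Thbs1 transcript was read beside the label. It was 2.53, 1.69, 17.89, 12.69 and 17.25 FPKM in the libraries labelled aged Thbs1 knockout. Aged controls had 0.20, 0.01, 0.62, 8.75 and 4.90 FPKM, and young controls 0.76, 0.70, 13.38, 2.42 and 3.95 FPKM. Its mean was not lower under the knockout label (log2 change 1.73, SE 0.71, adjusted p = 0.302, limma). Thbs1 was higher in libraries named female (log2 difference from males 2.3, adjusted p = 0.000147, limma with group as a covariate). Female libraries were 3 of the labelled knockouts and 2 of the aged controls. Within each sex every labelled knockout lay above every aged control. The allele is not given, so whether this transcript can report the deletion is unknown. Every direction below belongs to libraries labelled knockout. All 12 HSC marker genes had a mean of at least 1 FPKM in every group, while markers of other cells were mixed: the endothelial Cdh5 and the T cell Cd3d each averaged at most 0.148 FPKM in every group, but Eng, Tie1 and Nkg7 of the same lists each averaged at least 43.8 FPKM. Labelled knockout libraries 2 and 5 had the highest ribosomal RNA shares of reads, at 2.97% and 1.16%, against 0.27% to 0.68% elsewhere. Aged control 5 stood apart in the sum of megakaryocyte and platelet markers, at 1980 FPKM, of which Pf4 alone made up 1579.13 FPKM. No other gene of that list exceeded 192.13 FPKM in any aged control. The sums were 222 to 345 FPKM in labelled knockouts, 336 to 808 FPKM in the other aged controls and 373 to 482 FPKM in young controls. In every group the libraries named male carry the lower replicate numbers.

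Per unit of length, Selplg was the most abundant of the receptor transcripts, with 54.2 FPKM averaged over the 15 libraries, at percentile 89.8 of the tested genes. S1pr1 (15.5 FPKM), Robo4 (15 FPKM) and Cd44 (14.5 FPKM) had nearly equal overall means, and Cxcr4 was lowest at 9.75 FPKM, at percentile 53.8. S1pr1 varied most over the 15 libraries, with a coefficient of variation of 32.4%, and Cxcr4 least, at 14%. The order below Selplg changed with the group. In the libraries labelled knockout the next means were Robo4, Cd44 and S1pr1, between 14.3 and 12.7 FPKM and closer to each other than their SDs. In aged controls S1pr1 came second at 21.3 FPKM, above Robo4 and Cd44 at 13.7 and 12.7 FPKM, and in young controls S1pr1, at 12.6 FPKM, came below Cd44 and Robo4 at 17.3 and 17.0 FPKM. Robo4 and Cd44 differed by less than their SDs in each group, and Cxcr4 was lowest in all 3 groups. Fewer cells of a kind and less RNA per cell cannot be told apart in bulk libraries such as these.

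**Figure D1:**
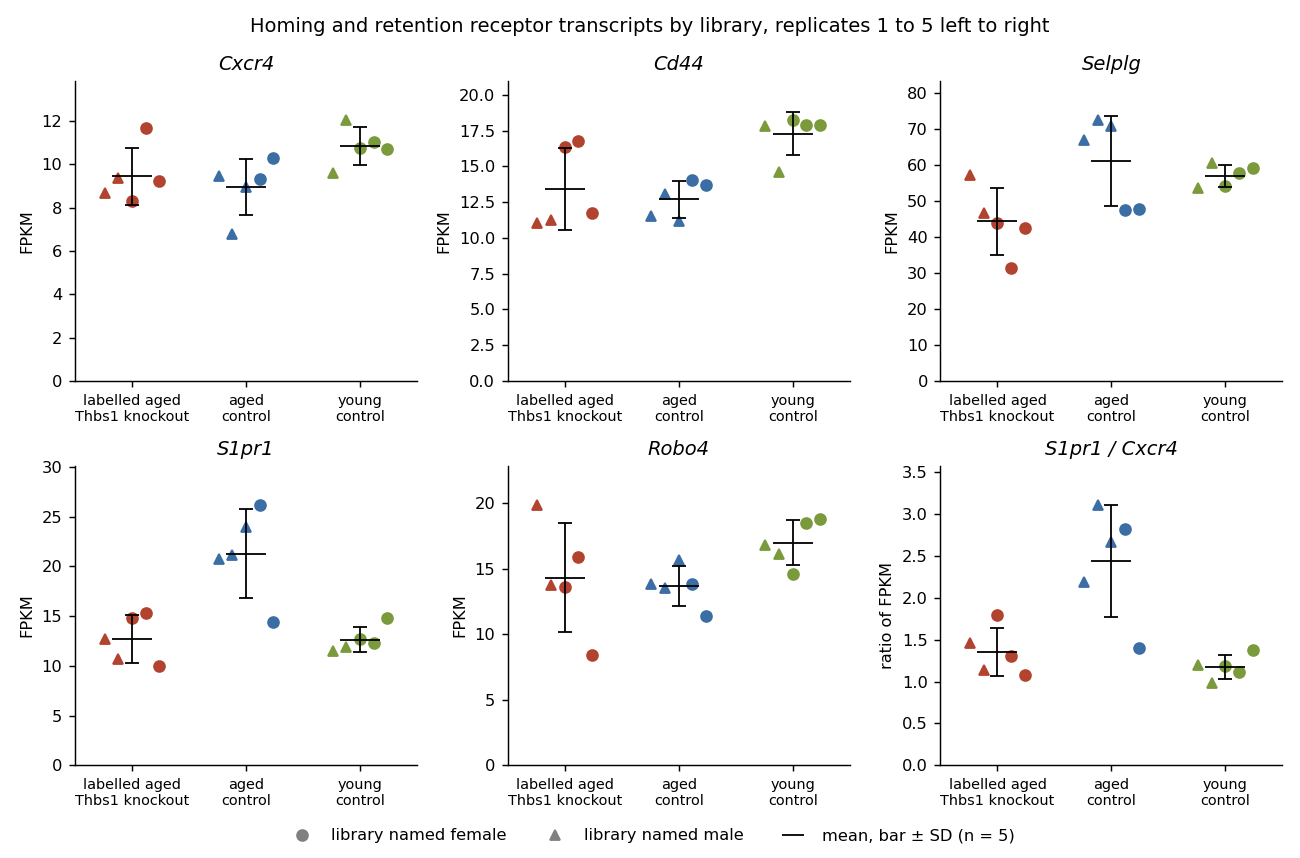
FPKM of each receptor transcript, and the ratio of S1pr1 to Cxcr4 FPKM, in each of the 15 libraries; circles are libraries named female and triangles libraries named male, horizontal bars are group means and error bars 1 SD (n = 5). The aged controls other than replicate 5 lie above all other libraries for S1pr1, and all 5 aged controls lie below all young controls for Cd44.

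S1pr1, the receptor for sphingosine 1-phosphate in blood, was the member that passed the test, in both comparisons with the aged controls. It was lower in libraries labelled aged Thbs1 knockout than in aged controls and higher in aged controls than in young controls, and the means of the libraries labelled knockout and of the young controls were nearly equal. Its level was 12.69, 10.68, 14.85, 15.33 and 9.94 FPKM in the libraries labelled knockout, against 20.72, 21.12, 23.94, 26.19 and 14.42 FPKM in aged controls. The young controls had 11.52, 11.88, 12.67, 12.33 and 14.81 FPKM. Aged control 5 was the low value of its group: it lay below labelled knockouts 3 and 4 and young control 5, and the other 4 aged controls lay above every other library. Group means were 12.7 ± 2.41 FPKM in labelled knockouts, 21.3 ± 4.43 FPKM in aged controls and 12.6 ± 1.29 FPKM in young controls (SD, n = 5 each).

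Across all tested genes, 1.55% were called (adjusted p under 0.05) in labelled knockouts against aged controls and 4.42% in aged against young controls; 1 of the 5 members was called in each, S1pr1 both times. For S1pr1 the log2 change was -0.69 in labelled knockouts against aged controls (SE 0.16, 95% interval -1.03 to -0.36, adjusted p = 0.0315, limma), a ratio of 0.618 on the FPKM + 1 scale. In aged against young controls the log2 change was 0.69 (SE 0.16, 95% interval 0.35 to 1.02, adjusted p = 0.0159, limma), a ratio of 1.61. Exact two-sided permutation tests of 5 against 5 libraries gave p = 0.0238 and p = 0.0159, each 0.0595 after adjustment over the 15 member tests, with 0.00794 as the smallest p the design allows. The same aged controls stand in both comparisons, so the opposite signs are not 2 separate observations. Between labelled knockouts and young controls 1.63% of genes were called and none of the members; for S1pr1 the log2 change was -0.01 (SE 0.16, 95% interval -0.34 to 0.33, adjusted p = 0.981, limma).

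Single libraries decided the first of these calls. The S1pr1 difference between labelled knockouts and aged controls missed the threshold without labelled knockout 2 (adjusted p = 0.0823) or 5 (0.0539) and without aged control 1 (0.0832), 2 (0.0821), 3 (0.1) or 4 (0.0715), all by limma, with log2 changes of -0.82 to -0.62 over the 15 omissions. Without labelled knockouts 2 and 5 together, the ones with high ribosomal RNA, it was -0.52 (adjusted p = 0.137, limma). The difference between aged and young controls missed only without aged control 3 (log2 change 0.64, adjusted p = 0.0555, limma). Without aged control 5, which had the high Pf4 level, both differences were larger, at -0.82 and 0.81.

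By sex, as read from the library names, S1pr1 in females was 9.94 to 15.33 FPKM in labelled knockouts (n = 3), 14.42 and 26.19 FPKM in aged controls, and 12.33 to 14.81 FPKM in young controls (n = 3). In males it was 10.68 and 12.69 FPKM in labelled knockouts, 20.72 to 23.94 FPKM in aged controls (n = 3), and 11.52 and 11.88 FPKM in young controls. Among males no aged control overlapped either other group, as was so for 32.7% of all tested genes against labelled knockouts and 53.9% against young controls. Both male differences were called (log2 changes -0.86 and 0.85, adjusted p = 0.0188 and 0.00977, limma on male libraries), beside 2.12% and 9.63% of all tested genes. Among females the log2 changes were -0.53 and 0.53 and neither was called (adjusted p = 0.931 and 0.989, limma on female libraries), where 0.0881% and 0.238% of genes were. The difference between the sexes in these changes was itself not called (0.32 and -0.32 female minus male, adjusted p = 0.999 and 0.745, limma interaction).

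Marker sums of other cells moved with S1pr1 in part. The HSC markers summed to 786 to 1010 FPKM in labelled knockouts, 1130 to 1230 FPKM in aged controls and 927 to 985 FPKM in young controls, so that the aged controls were highest for them too. T and NK cell markers, of which 7 of 8 were in the table, summed to 34.8 to 68.9 FPKM in labelled knockouts, 73.6 to 140 FPKM in aged controls and 61.9 to 113 FPKM in young controls. Most of that sum was Nkg7, at 43.8, 86.3 and 70.3 FPKM in the same order of groups. Klrb1c, a receptor of NK cells, averaged 6.88, 17.8 and 2.66 FPKM, highest in aged controls as S1pr1 was, Lck averaged 7.04, 7.23 and 7.93 FPKM, and the T cell receptor subunit gene Cd3d averaged 0.148, 0.058 and 0.082 FPKM. Endothelial markers, 9 of 10 in the table, summed to 128 to 245 FPKM in labelled knockouts, 157 to 221 FPKM in aged controls and 161 to 186 FPKM in young controls, mostly Eng and Tie1. The part of these markers, and of the megakaryocyte markers given above, in the S1pr1 result was not tested.

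Of the remaining lists, myeloid markers summed to 160 to 383 FPKM in labelled knockouts, 194 to 380 FPKM in aged controls and 90.9 to 144 FPKM in young controls, nearly all of it Prtn3. B cell markers summed to 30.9 to 57.9, 38.0 to 65.5 and 36.2 to 48.5 FPKM in labelled knockouts, aged controls and young controls. Erythroid markers summed to 52.6 to 254 FPKM in labelled knockouts, 76.6 to 390 FPKM in aged controls (aged control 5 the highest) and 92.1 to 191 FPKM in young controls. Stromal, macrophage and dendritic cell, and mast cell and basophil markers were low everywhere: in labelled knockouts, aged controls and young controls their highest sums were 6.48, 7.75 and 5.39 FPKM, 14.8, 13.4 and 15.2 FPKM, and 6.67, 9.03 and 7.41 FPKM.

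**Figure D2:**
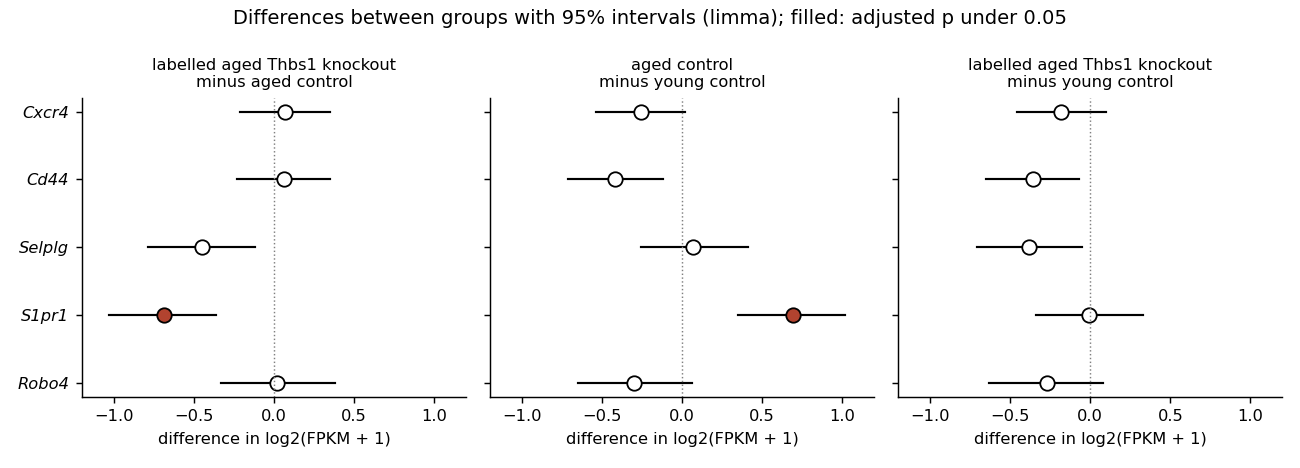
Differences in log2(FPKM + 1) between groups for each receptor transcript, with 95% intervals from limma; filled points have an adjusted p under 0.05. S1pr1 is filled at -0.69 in labelled knockouts minus aged controls and at 0.69 in aged minus young controls, and the intervals of Cd44 in aged minus young controls (-0.71 to -0.12) and of Selplg in labelled knockouts minus aged controls (-0.79 to -0.12) lie below 0 without passing the adjusted threshold.

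Cd44, the hyaluronan receptor, had lower values in every aged control than in any young control. It read 11.04, 11.23, 16.38, 16.74 and 11.77 FPKM in the libraries labelled knockout, 11.50, 13.09, 11.18, 14.06 and 13.70 FPKM in aged controls and 17.82, 14.59, 18.23, 17.88 and 17.87 FPKM in young controls. Labelled knockouts 3 and 4 lay above all aged controls and the other three lay among or below them. Group means were 13.4 ± 2.87 FPKM in labelled knockouts, 12.7 ± 1.3 FPKM in aged controls and 17.3 ± 1.51 FPKM in young controls (SD, n = 5 each). In aged against young controls the log2 change was -0.42 (SE 0.14, 95% interval -0.71 to -0.12), which was not called over all genes (adjusted p = 0.102, limma); the exact permutation p was 0.00794, or 0.0595 after adjustment over the 15 member tests. Complete separation of these groups was seen for 7.16% of all tested genes and for 1 of the 5 members. Without labelled knockouts 2 and 5 in the fit the log2 change was again -0.42 and was called (adjusted p = 0.0438, limma), although neither library belongs to the groups compared. The log2 change of Cd44 in labelled knockouts against aged controls was 0.06 (SE 0.14, 95% interval -0.23 to 0.35, adjusted p = 0.903, limma), and against young controls -0.36 (SE 0.14, adjusted p = 0.167, limma). Over all groups Cd44 averaged 15.8 FPKM in females (n = 8) and 12.9 FPKM in males (n = 7), and the log2 difference within groups was 0.25 (SE 0.1, adjusted p = 0.101, limma), called without labelled knockout 5 (0.0277) or without young control 1 (0.0391).

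The PSGL-1 gene Selplg went another way: its values were lowest under the knockout label. It read 57.40, 46.85, 43.80, 31.45 and 42.41 FPKM in the libraries labelled knockout, against 67.12, 72.55, 70.87, 47.62 and 47.72 FPKM in aged controls and 53.59, 60.57, 54.22, 57.76 and 59.33 FPKM in young controls. Labelled knockout 1 lay among the controls, and the other 4 lay below every control library. The mean was 44.4 ± 9.31 FPKM in labelled knockouts, 61.2 ± 12.5 FPKM in aged controls and 57.1 ± 3.08 FPKM in young controls (SD, n = 5 each). The log2 change was -0.45 in labelled knockouts against aged controls (SE 0.16, 95% interval -0.79 to -0.12) and was not called (adjusted p = 0.192, limma; exact permutation p = 0.0476, 0.102 over the 15 member tests). Against young controls it was -0.38 (SE 0.16, 95% interval -0.71 to -0.05, adjusted p = 0.188, limma). The exact permutation p there was 0.0238, or 0.0595 over the 15 member tests. Aged and young controls differed by 0.07 (SE 0.16, adjusted p = 0.8, limma).

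In aged controls and in labelled knockouts, the Selplg values of libraries named female lay below those of libraries named male. How many of all tested genes divide in this way was not counted. Female aged controls had 47.62 and 47.72 FPKM and male aged controls 67.12 to 72.55 FPKM (n = 3). Among the libraries labelled knockout, females had 31.45 to 43.80 FPKM (n = 3) and males 46.85 and 57.40 FPKM. The aged controls divided the same way in myeloid markers, which summed to 194 and 242 FPKM in females and 355 to 380 FPKM in males. B cell markers did so too, at 38.0 and 40.7 FPKM in females and 55.5 to 65.5 FPKM in males. Endothelial markers also did, at 157 and 193 FPKM in females and 206 to 221 FPKM in males. Mast cell and basophil markers divided the other way, at 7.99 and 9.03 FPKM in females and 3.64 to 6.18 FPKM in males. In the other lists the sexes overlapped among aged controls. Among the libraries labelled knockout, female replicate 5 had the highest sum for the myeloid and B cell lists, at 383 and 57.9 FPKM. The part of these markers in the Selplg values was not tested. Young controls showed no such division in Selplg, with 54.22 to 59.33 FPKM in females (n = 3) and 53.59 and 60.57 FPKM in males. With group as a covariate the log2 difference of females from males was -0.32 (SE 0.11, 95% interval -0.54 to -0.1, adjusted p = 0.056, limma), just short of a threshold that 12.9% of all tested genes passed. It was called without labelled knockout 5 (adjusted p = 0.0289, limma) or without young control 1 (0.015), and with quantile normalization (0.037). The age change differed between the sexes by -0.55 (female minus male), which was not called (adjusted p = 0.554, limma interaction). Within a group, sex cannot be told apart from low or high replicate number.

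Cxcr4, the transcript of the CXCL12 receptor, covered a narrow range. Its level was 8.67, 9.37, 8.31, 11.69 and 9.24 FPKM in labelled knockouts, 9.44, 6.80, 8.96, 9.30 and 10.29 FPKM in aged controls and 9.60, 12.04, 10.77, 11.05 and 10.70 FPKM in young controls. Aged control 5 was the single aged control above any young control. Means were 9.46 ± 1.32, 8.96 ± 1.3 and 10.8 ± 0.873 FPKM in labelled knockouts, aged controls and young controls (SD, n = 5 each). No comparison was called: the log2 change was 0.07 in labelled knockouts against aged controls (95% interval -0.21 to 0.35, adjusted p = 0.86, limma), -0.26 in aged against young controls (95% interval -0.54 to 0.02, adjusted p = 0.283, limma; exact permutation p = 0.0159) and -0.18 in labelled knockouts against young controls (adjusted p = 0.405, limma).

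For Robo4, the niche adhesion receptor, the spread was in the libraries labelled knockout, at 19.88, 13.78, 13.57, 15.91 and 8.42 FPKM, which held both the highest and the lowest of all 15 values. Aged controls had 13.86, 13.54, 15.69, 13.85 and 11.37 FPKM, and young controls 16.84, 16.14, 14.63, 18.48 and 18.78 FPKM. The groups overlapped in every comparison, and aged control 3 was the single aged control above any young control. Means were 14.3 ± 4.16 FPKM in labelled knockouts, 13.7 ± 1.54 FPKM in aged controls and 17.0 ± 1.71 FPKM in young controls (SD, n = 5 each). The log2 change was 0.02 in labelled knockouts against aged controls (95% interval -0.33 to 0.38, adjusted p = 0.972, limma). In aged against young controls it was -0.3 (95% interval -0.65 to 0.06, adjusted p = 0.327, limma). The exact permutation p there was 0.0159, or 0.0595 after adjustment over the 15 member tests. In labelled knockouts against young controls the log2 change was -0.27 (adjusted p = 0.339, limma). ROBO4 is also an endothelial receptor, and labelled knockouts 1 and 5, its extremes, had the highest and lowest endothelial marker sums of all libraries, at 245 and 128 FPKM. Cdh5, the defining endothelial cadherin, averaged 0.058 FPKM in labelled knockouts, 0.062 FPKM in aged controls and 0.048 FPKM in young controls.

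Set against each other within a library, the exit receptor and the retention receptor gave a ratio of S1pr1 to Cxcr4 FPKM of 1.46, 1.14, 1.79, 1.31 and 1.08 in labelled knockouts, 2.19, 3.11, 2.67, 2.82 and 1.4 in aged controls and 1.2, 0.987, 1.18, 1.12 and 1.38 in young controls. The ratio was formed after the values were seen and carries no test. Means were 1.36 ± 0.285 in labelled knockouts, 2.44 ± 0.669 in aged controls and 1.17 ± 0.142 in young controls (SD, n = 5 each), with aged control 5 again among the other groups. Summed FPKM of the 5 transcripts was 94.3 ± 10.2 in labelled knockouts, 118 ± 13.5 in aged controls and 115 ± 5.0 in young controls. Selplg made up 47.0%, 51.6% and 49.7% of that sum in the same order, and S1pr1 made up 13.5%, 18.0% and 11%.

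The receptors did not vary as a unit. As deviations from the group means over the 15 libraries, Cd44 and Selplg ran opposite to each other (Pearson r -0.69), as did Cxcr4 and Selplg (r -0.61), while S1pr1 and Robo4 ran together (r 0.57). The other 7 pairs lay between -0.06 and 0.39. These correlations are descriptions over libraries that share sequencing depth, sex and sorting differences.

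Genes that followed each receptor most closely over the 15 libraries in log2(FPKM + 1) were, for S1pr1, Apbb2 (r 0.92, or 0.714 within groups), Tapbpl (0.907, or 0.667) and Stat3 (0.905, or 0.718). Apbb2 averaged 0.708 FPKM in labelled knockouts, 1.65 FPKM in aged controls and 0.722 FPKM in young controls, and so passed the filter through the aged controls alone. Stat3, a cytokine-activated transcription factor, averaged 38.4 FPKM in labelled knockouts, 55.8 FPKM in aged controls and 40.6 FPKM in young controls. Cd44 was followed by Slc38a2, an amino acid transporter (0.948), the dynein subunit gene Dync1li2 (0.945) and Ncoa4, which encodes an autophagy receptor for ferritin (0.941). Selplg was followed by the actin-binding protein genes Cnn2 (0.936) and Gsn (0.926) and by Plscr3 (0.877). Robo4 was followed by Csrnp1 (0.934), Sirpa, which encodes a receptor for CD47 (0.933), and Afap1l1 (0.917). The closest genes to Cxcr4 reached lower values, with Fh1 at 0.786, Ccsap at 0.784 and Prdm10 at 0.776, the last of which passed the filter through the young controls alone. For Cd44, Selplg and Robo4 the correlations within groups stayed at 0.881 or above, so these genes followed the differences among libraries of the same group. All were picked by their correlation over the same 15 libraries, group differences included, so a shared pattern follows from the choice.

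**Figure D3:**
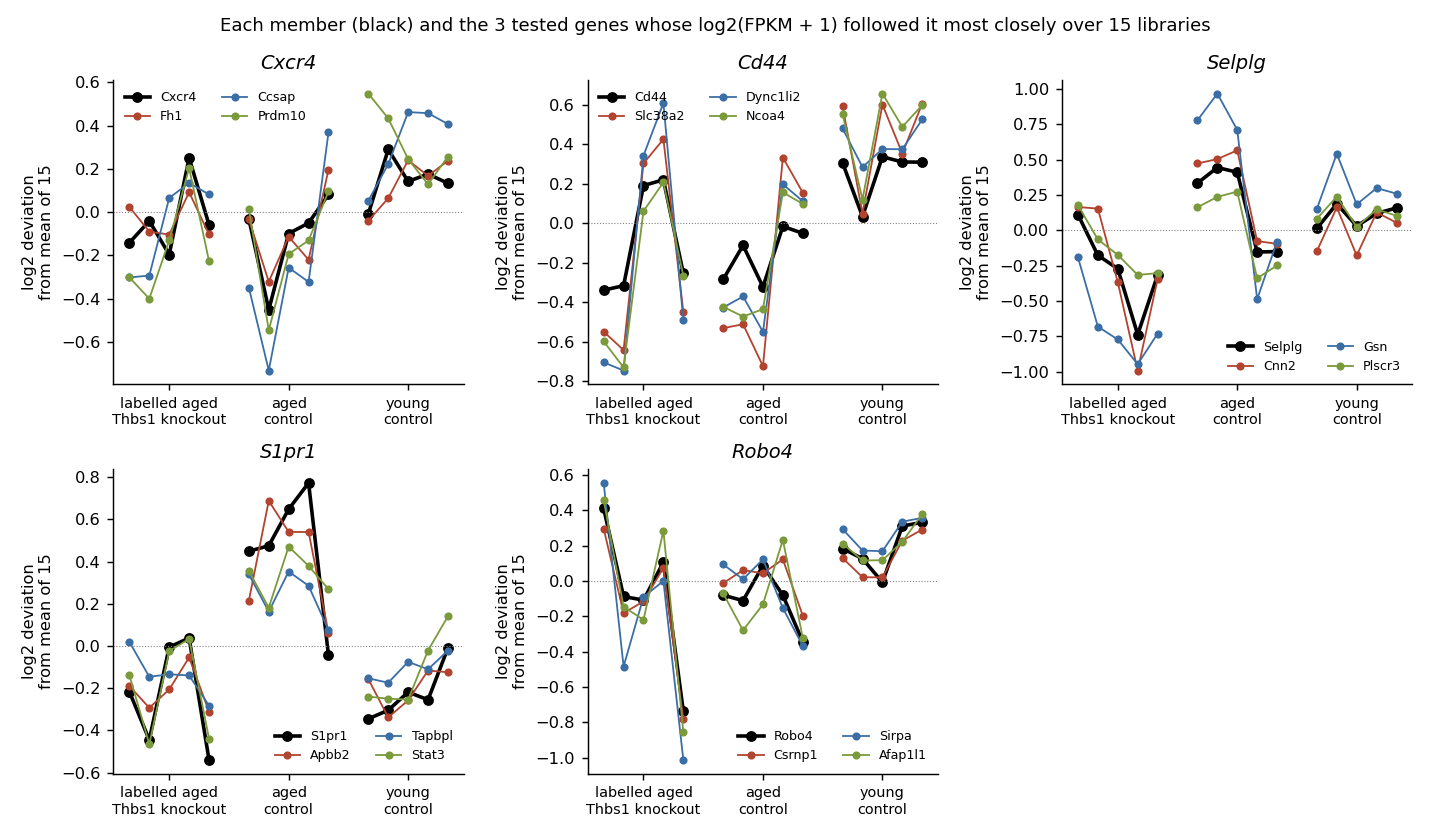
Deviation of log2(FPKM + 1) from its mean over 15 libraries for each receptor (black) and the 3 tested genes most correlated with it, with replicates 1 to 5 of each group from left to right. Apbb2, Tapbpl and Stat3 share with S1pr1 the higher values of aged controls, and the genes near Cd44 share with it the higher values of labelled knockouts 3 and 4 than of the other libraries of that label. The genes were picked by this correlation, so the shared patterns follow from the choice.

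The wider pathways were read from 9 lists with 134 genes besides the members, of which 128 were in the table and 98 were tested. The lists were chosen with earlier results of these data known. The shares below describe the lists and are not a test of the pathways. In labelled knockouts against aged controls 1 of the 98 rose and 4 fell (5.1%, beside 1.55% of all tested genes), and the median log2 change was -0.18, beside -0.03 over all tested genes. In aged against young controls 7 rose and 3 fell (10.2%, beside 4.42%), with a median of -0.1 beside -0.02. Between labelled knockouts and young controls 1 rose and 2 fell (3.06%, beside 1.63%), with a median of -0.26 beside -0.06. Robo3, which is among the 4 and among the 7, passed the filter through the aged controls alone. Called genes were spread thinly over the lists, with at most 2 in any list and comparison.

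Among 16 tested genes of selectins and selectin ligand glycosylation, the partners of PSGL-1 and CD44, P-selectin itself moved most. Selp was 15.58 to 42.05 FPKM (median 35.9) in labelled knockouts, 66.34 to 82.73 FPKM (median 73.6) in aged controls and 6.52 to 16.39 FPKM (median 15.6) in young controls, and the aged controls overlapped neither other group, a separation seen for 2.34% of tested genes between labelled knockouts and aged controls. It fell in labelled knockouts against aged controls (log2 change -1.35, adjusted p = 0.0102, limma) and rose in aged against young controls (2.58, adjusted p = 9.77e-06, limma). Among females alone it had a log2 change of -0.94 in the first comparison, which was not called (adjusted p = 0.132, limma on female libraries). Against young controls it rose in labelled knockouts (1.23, adjusted p = 0.0228, limma), a call lost without labelled knockout 5 (adjusted p = 0.0607), young control 1 (0.0745) or young control 2 (0.0678). Cd34, a sialomucin that can carry selectin ligands, averaged 27.0 ± 8.76 FPKM in labelled knockouts, 23.1 ± 4.23 FPKM in aged controls and 48.7 ± 5.45 FPKM in young controls (SD, n = 5 each). It fell in aged against young controls (log2 change -1.06, adjusted p = 0.0012, limma) and in labelled knockouts against young controls (-0.88, adjusted p = 0.0154, limma). The second of these was lost without young control 5 (adjusted p = 0.0528) and without labelled knockouts 2 and 5 together (log2 change -0.64, adjusted p = 0.0996). The enzymes that complete selectin ligands, the fucosyltransferase gene Fut7 and the tyrosylprotein sulfotransferase gene Tpst2, averaged 10.2 and 101 FPKM in labelled knockouts, 14.3 and 120 FPKM in aged controls and 16.2 and 95.1 FPKM in young controls, with no call.

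On the chemokine side, 10 of 15 genes were tested. Dpp4, the peptidase that inactivates CXCL12, fell in aged against young controls, with means of 1.16 FPKM in aged controls and 3.65 FPKM in young controls (log2 change -1.08, adjusted p = 0.0151, limma; 0.0555 without aged control 3). Rgs2, a regulator of G protein signalling, averaged 6.08 FPKM in labelled knockouts, 4.86 FPKM in aged controls and 10.1 FPKM in young controls. It fell in aged against young controls (log2 change -0.93, adjusted p = 0.000869, limma) and in labelled knockouts against young controls (-0.65, adjusted p = 0.0338, limma). The second of these calls was lost in 7 of 15 single-library omissions. Cxcl12 and the decoy receptor gene Ackr3 were below the filter, with group means of at most 0.128 and 0.254 FPKM.

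Genes around S1pr1 showed 1 call in 12 tested. Plpp3, whose product degrades extracellular sphingosine 1-phosphate, averaged 5.12 ± 0.816 FPKM in labelled knockouts, 3.16 ± 0.349 FPKM in aged controls and 3.82 ± 0.363 FPKM in young controls (SD, n = 5 each). It rose in labelled knockouts against aged controls (log2 change 0.55, adjusted p = 0.0457, limma), a call lost in 12 of 15 single-library omissions. The exporter gene Spns2 was abundant, at 139, 165 and 174 FPKM in labelled knockouts, aged controls and young controls, and was called nowhere. The other exporter gene, Mfsd2b, had medians of 10.1, 13.6 and 15.3 FPKM in the same order, with 1 aged control at 59.71 FPKM. Of the other receptors, S1pr4 averaged 29.6, 30.1 and 23.9 FPKM and S1pr2 averaged 3.38, 5.21 and 3.92 FPKM, again with no call. S1pr2 had log2 changes of -0.54 in labelled knockouts against aged controls (adjusted p = 0.18, limma) and 0.35 in aged against young controls (adjusted p = 0.288, limma). Klf2, which drives S1pr1 transcription in T cells, averaged 7.07, 8.76 and 5.34 FPKM, also with no call. Cd69, whose product pulls S1PR1 off the lymphocyte surface, was below the filter, at 0.616 ± 0.362 FPKM in labelled knockouts, 0.312 ± 0.168 FPKM in aged controls and 1.54 ± 0.366 FPKM in young controls. The lyase gene Sgpl1 averaged 9.32, 11.2 and 13.1 FPKM and the kinase gene Sphk1 averaged 2.08, 1.85 and 2.2 FPKM, without a call.

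In the Slit and Robo list 5 of 13 genes were tested. Robo3 averaged 0.966 ± 0.208 FPKM in labelled knockouts, 2.86 ± 1.61 FPKM in aged controls and 0.966 ± 0.294 FPKM in young controls (SD, n = 5 each). It was the single tested gene of the 9 lists to pass the filter through 1 group alone, the aged controls where it was high. Its calls are therefore not read as a result. The log2 change was -0.9 in labelled knockouts against aged controls (adjusted p = 0.0322, limma; 0.0673 without the filter, and lost in 6 of 15 omissions) and 0.91 in aged against young controls (adjusted p = 0.0145, limma; 0.0501 without young control 5). Robo1, Slit2 and Unc5b, whose product is a partner of ROBO4 in endothelium, were below the filter at group means of at most 0.33, 0.09 and 0.212 FPKM. None of the 9 tested genes of the hyaluronan and CD44 list was called in any comparison; Hmmr, another hyaluronan receptor gene, was below the filter and Has2 was not analysed here.

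An integrin gene and a protease gene were, like S1pr1, highest in aged controls, and both were called against aged controls in all 15 omissions. Itgb7, a leukocyte integrin subunit that pairs with alpha 4, averaged 9.61 ± 1.95 FPKM in labelled knockouts, 19.8 ± 3.4 FPKM in aged controls and 11.9 ± 2.13 FPKM in young controls (SD, n = 5 each). It fell in labelled knockouts against aged controls (log2 change -0.98, adjusted p = 0.00289, limma) and rose in aged against young controls (0.69, adjusted p = 0.019, limma). The second call was lost without aged control 2 (0.0572) or 3 (0.0695) or young control 3 (0.0721) or 4 (0.0575). Mmp14, a membrane-bound matrix metalloprotease known to cleave CD44, averaged 4.16 ± 1.05 FPKM in labelled knockouts, 8.82 ± 0.481 FPKM in aged controls and 3.33 ± 0.766 FPKM in young controls. It fell in labelled knockouts against aged controls (-0.95, adjusted p = 0.00314, limma) and rose in aged against young controls (1.2, adjusted p = 0.000144, limma). Itgb7 was 1 call among 13 tested integrin genes and Mmp14 was 1 among 7 tested protease genes in each of these comparisons. Among females alone neither was called in labelled knockouts against aged controls, where 0.0881% of all tested genes were. The log2 changes there were -0.95 for Itgb7 and -0.73 for Mmp14 (adjusted p = 0.399 and 0.383, limma on female libraries).

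Among other niche receptors, 2 of 11 tested genes rose in aged against young controls: Ptger4, a prostaglandin E2 receptor gene (13.6 FPKM in aged and 6.97 FPKM in young controls, log2 change 0.87, adjusted p = 0.0132, limma), and the adhesion molecule gene Esam (128 FPKM in aged and 87.0 FPKM in young controls, 0.54, adjusted p = 0.0193, limma). The Esam call was lost without aged control 1 (0.0786) or 2 (0.0749) or young control 3 (0.0658) or 5 (0.0613). The focal adhesion kinase relative Ptk2b also rose in aged against young controls (59.5 FPKM in aged and 41.8 FPKM in young controls, log2 change 0.49, adjusted p = 0.032, limma), a call lost in 8 of 15 omissions. None of these genes was called in labelled knockouts against aged or young controls.

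**Figure D4:**
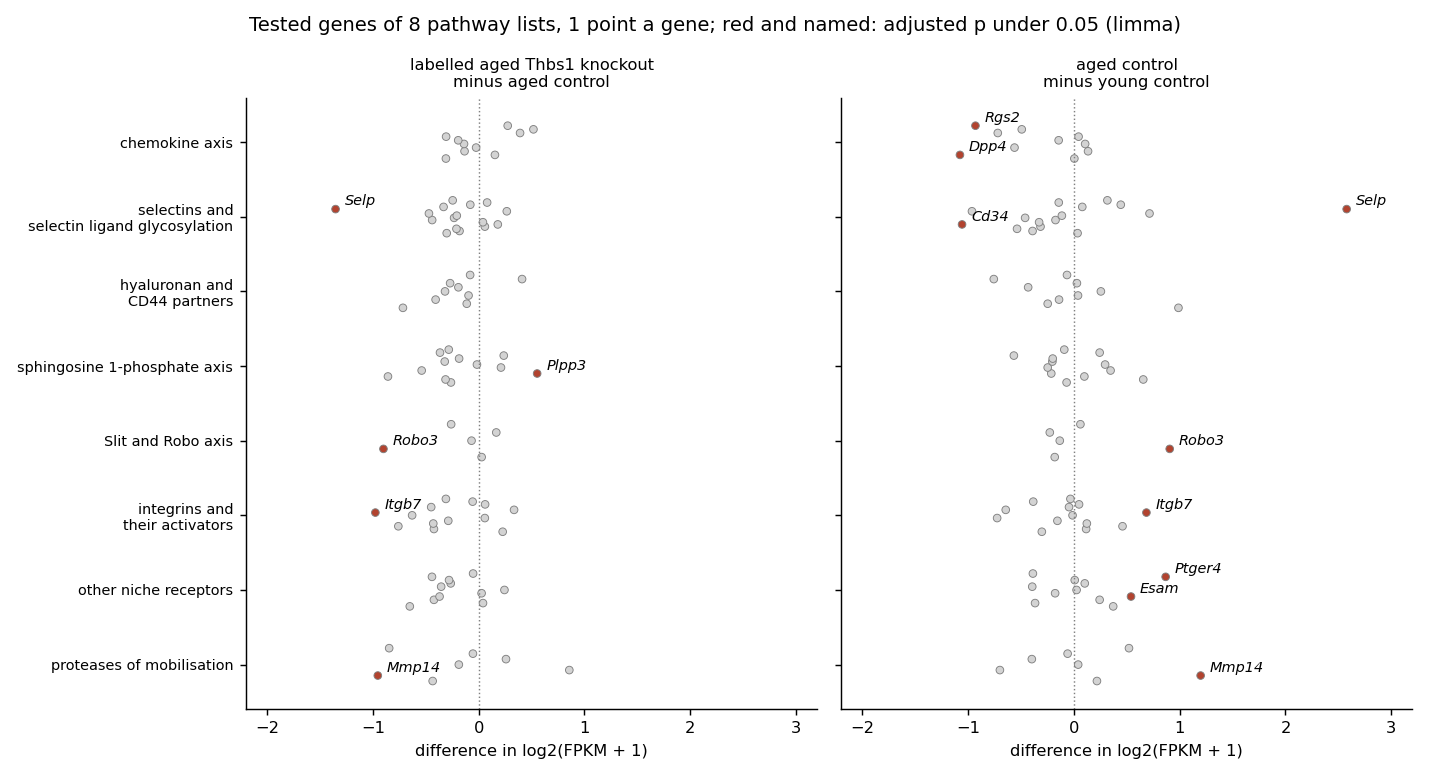
Difference in log2(FPKM + 1) for each tested gene of 8 of the 9 pathway lists, in labelled knockouts minus aged controls (left) and aged minus young controls (right); red points with names have an adjusted p under 0.05 by limma. Selp, Itgb7 and Mmp14 are red in both panels, below 0 on the left and above 0 on the right, as is Robo3, which passed the filter through the aged controls alone; the aged controls are shared by the panels.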

How the data were processed

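Per the labels' protocols, HSCs were sorted into TRIzol-LS, and 2 ng of total RNA entered each SMART-Seq v4 library. The submitters' processing notes name FastQC 0.11.5, STAR and edgeR and the build GRCm38 (mm10), without roles or settings. The deposited table holds FPKM, rounded by the authors to 2 decimals, for 20696 genes. How strand and multi-mapped reads were counted is not stated.

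Columns were grouped by sample title. The library names in GEO's descriptions point to the same sample for 5 columns and to another for 10, and that grouping was run as an alternative. In the table, the library names carry the letter A in every young control column. They carry B in every aged control column and C in every labelled knockout column, so these letters go with the titles. The descriptions' grouping mixes the letters. Sex was read from the library names in the table. All gene identifiers matched GENCODE M21, which gave lengths and positions. Libraries of 1 group correlated at 0.951 to 0.993 across genes, and no pair shared more than 0.39% identical values. Whole reads were recovered from the FPKM steps of genes up to 400 nucleotides: 98.5% to 99.2% of values were whole within 0.1 reads, and 97.1% to 98.5% in held-out genes up to 500 nucleotides. They came to 16.6e6 to 28.6e6 reads in genes per library. Depth limits precision most for Cxcr4.

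Values were analysed as log2(FPKM + 1), a scale that understates changes of low genes. Genes with a mean of at least 1 FPKM (11345) were fitted with limma 3.58.1 (R 4.3.3; trended prior variance, 15 libraries in 1 fit, no covariate). Tests were two-sided, with Benjamini-Hochberg adjustment over all tested genes and a threshold of 0.05. The sexes were compared with group as a covariate. Members were also compared by exact permutation of 5 against 5 (SciPy 1.17.1). The fit was tested on simulated data. Voom on recovered reads was an alternative, beside another pseudocount (0.1), no filter, quantile normalization, sex as a covariate, a replicate block, omissions of libraries, and each sex alone, which was chosen after seeing the data.

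The members, gene lists and tests were chosen with earlier results of these data known. Named genes are the members, Thbs1, the called genes among the 4 of each pathway list with the smallest p, a set of direct partners, and the 3 tested genes most correlated with each member, leaving out clone names, pseudogenes and sex-linked genes. A few genes and 1 list by itself are not reported here. Marker lists covered HSC, myeloid, B, T and NK, erythroid, megakaryocyte, endothelial, stromal, macrophage and mast cells.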

Additional observations from a re-analysis of the deposited data

Results flagged for a closer look

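Cd44 in young control replicate 2, at 14.59 FPKM, lay far below the other 4 young controls, which held 17.82 to 18.23 FPKM. It was the single library to stand apart among the 15 combinations of receptor and group examined, and chance flags about 1 in 20 such groups. Even this value was above the highest aged control, 14.06 FPKM, and without it the log2 change of Cd44 in aged against young controls was -0.47 instead of -0.42.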

How the results depend on the processing

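The S1pr1 difference in aged against young controls kept its direction and its call with a pseudocount of 0.1, without the filter, with quantile normalization, with sex as a covariate and with voom (adjusted p = 0.0227). Against aged controls, the difference in labelled knockouts also kept them with voom (0.047) but not without the filter (-0.69, adjusted p = 0.0505), without labelled knockouts 2 and 5 (-0.52) or in females alone (-0.53; aged against young 0.53).

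Same-numbered libraries of different groups deviated together about as often as others (15 pairs, r -0.46 to 0.53, 6 over 0.1, beside 26 of 60 pairs with other numbers over 0.1). These values show no sign that the numbers pair the samples. They cannot exclude a pairing, because sex and other differences among libraries enter the same deviations. With a replicate block S1pr1 stayed called (adjusted p = 0.0351 in labelled knockouts against aged controls, 0.0185 in aged against young controls), while 3 pathway genes instead of 5 were called in the first of these; Plpp3, Robo3, Ptk2b and, against young controls, Rgs2 missed the threshold.

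Grouping the columns by the descriptions' library names left 0 genes called in labelled knockouts against aged controls, 0 in aged against young controls and 15 in labelled knockouts against young controls, with 0 pathway genes in each. In labelled knockouts against aged controls the log2 changes became -0.05 for Cxcr4, -0.04 for Cd44, 0.27 for S1pr1, -0.42 for Robo4, 0.00 for Itgb7, 0.75 for Mmp14, -0.08 for Plpp3, 0.58 for Robo3 and 1.51 for Selp. In aged against young controls they became 0.11 for Cxcr4, 0.14 for Cd44, -0.23 for Selplg, -0.41 for S1pr1, 0.15 for Robo4, 0.43 for Cd34, 0.19 for Dpp4, -0.34 for Esam, -0.59 for Itgb7, -0.76 for Mmp14, -0.36 for Ptger4, -0.33 for Ptk2b, 0.28 for Rgs2, -0.63 for Robo3 and -0.79 for Selp. In labelled knockouts against young controls they became 0.07 for Cxcr4, 0.09 for Cd44 and 0.00 for Cd34. The results of these comparisons therefore rest on the titles. In the descriptions' grouping every young control library is named male and every labelled knockout library is named female. Group and sex cannot be told apart there between labelled knockouts and young controls, and the other comparisons are also unbalanced in sex.

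Other settings turned only differences that were not called. In labelled knockouts against aged controls these were Cxcr4 (-0.02) and Robo4 (-0.03) in females and Cd44 (-0.09) in males. In aged against young controls Selplg was -0.02 with quantile normalization and -0.25 in females. In labelled knockouts against young controls S1pr1 was 0.09 with quantile normalization and 0.17 without labelled knockouts 2 and 5, and Robo4 was 0.01 in males. Cd44 in aged against young controls was called without labelled knockouts 2 and 5 (-0.42), and Selplg between the sexes with quantile normalization (-0.29). Counts moved to 1030 for aged against young controls without those 2 libraries, to 429 for labelled knockouts against young controls with sex as a covariate (7 pathway genes, or 5 with quantile normalization), to 860 between the sexes without the filter, and to 3 pathway genes in labelled knockouts against aged controls without the filter. The causes were not tested.

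Leaving out single libraries gave 95 to 229 called genes in labelled knockouts against aged controls (lowest without aged control 1), 311 to 943 in aged against young controls (highest without aged control 5), 98 to 676 in labelled knockouts against young controls (highest without labelled knockout 4) and 529 to 2872 between the sexes (highest without young control 1). Pathway genes called were 3 to 6, 7 to 12 and 1 to 6 in the group comparisons. The log2 changes ranged from -0.82 to -0.62 for S1pr1, -0.01 to 0.12 for Cxcr4, -0.02 to 0.12 for Cd44 and -0.1 to 0.19 for Robo4 in labelled knockouts against aged controls, from 0.61 to 0.81 for S1pr1 in aged against young controls, and from -0.08 to 0.07 for S1pr1 in labelled knockouts against young controls. Between the sexes they ranged from 0.21 to 0.29 for Cd44, -0.38 to -0.27 for Selplg and -0.01 to 0.18 for S1pr1.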
